A study of Mus musculus with 2 samples.

Results

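The chitinase-like and resistin-like genes described here are 5 of the 28692 genes counted in each library, namely Chia1, Chil1, Chil3, Chil4 and Retnla. They were taken by symbol, and all 5 were found. Their RNA was counted with a 10x Genomics 3' single-cell kit in adult C57BL/6 mouse lung cells that a cell sorter had purified on Epcam, a surface protein by which epithelial cells adhere. The Control library and the library made after the injury labelled NAPH share this strain, tissue and sort. There is 1 library per group, and the labels state neither the dose, the time after injury, the sex nor how many animals a library stands for. No comparison between the groups therefore has a replicate check or a p-value. Every difference is between these libraries, and the ranges in parentheses are exact 95% intervals, Poisson for counts and binomial for shares, that cover counting error only.

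The proteins of this family bind or degrade chitin, the polymer of fungal walls and of arthropod and worm cuticles, or descend from enzymes that did. Chia1 is the acidic mammalian chitinase, an enzyme secreted in lung and stomach that cleaves chitin. Chil1 (also called BRP-39 and, in humans, YKL-40), Chil3 (Ym1) and Chil4 (Ym2) are chi-lectins, which keep the chitinase fold without the enzyme activity. Retnla (also called FIZZ1 or RELM-alpha) is a small secreted protein of the resistin family. In the lung these genes are known as part of the type 2 response, in which the cytokines IL-4 and IL-13 act through the transcription factor STAT6 on macrophages and airway epithelium.

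Cells were sorted into classes by fixed levels of defining genes. Most levels were per 10000 unique molecular identifiers (UMIs, each standing for 1 captured RNA molecule) of the cell. The Upk3a split and the macrophage gate used the cell's UMIs without this scaling, so they depend on its depth. Alveolar type 2 (AT2) cells, the surfactant-making cells of the alveoli, had at least 500 UMIs of Sftpc, and 1800 Control and 2516 NAPH cells passed. Secretory airway cells had at least 1000 of Scgb1a1, the club cell secretoglobin, and were split by at least 2 UMIs of Upk3a, a marker of variant club cells. The Upk3a-negative secretory class held 741 Control and 123 NAPH cells, and the Upk3a-positive class held 16 and 74. Goblet-like cells had at least 150 of Scgb3a1 plus Bpifb1 (139 and 75 cells), and ciliated cells at least 10 of Foxj1 plus Ccdc153 plus Tmem212 (193 and 204). The alveolar macrophage class had at least 5 UMIs of Ear1 plus Ear2 plus Marco (96 and 64), and 379 and 602 cells fell in no class. A cell that passed several gates was counted in each, so classes that share cells are not independent where their intervals are compared. All 139 Control goblet-like cells were also Upk3a-negative secretory cells, and of the 75 in NAPH 41 were also Upk3a-negative and 26 Upk3a-positive secretory cells.

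Levels are given as UMIs per 1000000 UMIs (CPM) summed over the cells of a class. After filtering, 3211 Control and 3573 NAPH cells remained, with medians of 8227 and 9343 UMIs per cell, and 14 barcodes occurred in both libraries. Secretory cells were the deepest, with a median of 29298 UMIs in Control and 19473 in NAPH in the Upk3a-negative class, of which Scgb1a1 alone took 59.6% and 36.6%. The median gene in this class therefore stood 0.57 higher in NAPH on the log2 scale, against 0.61 in Upk3a-positive, 0.41 in goblet-like, 0.11 in ciliated, 0.09 in AT2 and 0.21 in unclassed cells, and -0.20 in the macrophage class. Ratios of NAPH over Control are given relative to this median gene of the class unless called plain. Markers not used by the gates were checked by their summed levels. The 6 AT2 markers summed to 50552 CPM in Control and 52718 in NAPH in AT2 cells and to at most 17932 in other classes. The 6 club markers summed to between 29251 and 62591 CPM in the secretory and goblet-like classes and to at most 9352 elsewhere, and the 6 ciliated markers to 15148 and 10920 in ciliated cells and to at most 595 elsewhere. At least 3 of 6 goblet markers were found in 92.8% of Control and 86.7% of NAPH goblet-like cells. The macrophage class went against its name in NAPH: 92 of 96 Control cells but 24 of 64 NAPH cells had at least 3 of 8 alveolar macrophage markers, and values in this class are given with and without the others.

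The positions of the members bear on which of them can be told apart. In GENCODE vM21 on GRCm38, Chia1 lies at chr3:106113229-106132120 on the plus strand, and Chil3 (chr3:106147554-106167564) and Chil4 (chr3:106201490-106219507) lie beside it on the minus strand. Only 15433 bases separate Chia1 from Chil3 and 33925 separate Chil3 from Chil4. The cluster is flanked by Chil5 and Chil6. Chil1 lies alone at chr1:134182176-134190181, and Retnla at chr16:48842551-48844461, a gene of 4 exons, with Retnlg nearby on the same chromosome. The Chil3 and Chil4 transcripts are 94.4% identical over 1538 aligned bases and 92.2% identical over their last 500 bases, the end that a 3' kit reads.

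The bases just upstream of Chil3 and Chil4 are near copies too, with 201 of 221 aligned bases identical (91%), although the RNA of the former was found in macrophages and that of the latter in goblet-like cells. These stretches are shown with that of Retnla, the member with the most UMIs in airway cells, so that the starts of a macrophage gene and of 2 genes highest in goblet-like cells can be compared. Capitals mark a match to TTCNNNGAA or TTCNNNNGAA, the palindromic half-site pairs that STAT factors are known to bind, which read the same on both strands. The sequences are RefSeq's on GRCm38.p6, 5′ to 3′ on the gene's strand, cut where either annotation starts the gene.
Chil3, chr3:106167565-106167814, minus strand: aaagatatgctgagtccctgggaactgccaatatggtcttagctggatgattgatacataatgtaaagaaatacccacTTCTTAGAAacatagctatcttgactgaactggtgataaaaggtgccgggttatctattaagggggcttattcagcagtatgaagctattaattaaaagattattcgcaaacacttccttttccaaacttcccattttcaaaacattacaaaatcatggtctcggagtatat
Chil4, chr3:106219508-106219729, minus strand: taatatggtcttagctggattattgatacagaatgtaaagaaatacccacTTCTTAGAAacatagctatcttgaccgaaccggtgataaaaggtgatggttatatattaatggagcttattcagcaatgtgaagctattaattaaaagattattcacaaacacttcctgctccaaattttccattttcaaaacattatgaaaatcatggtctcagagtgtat
Retnla, chr16:48842359-48842550, plus strand: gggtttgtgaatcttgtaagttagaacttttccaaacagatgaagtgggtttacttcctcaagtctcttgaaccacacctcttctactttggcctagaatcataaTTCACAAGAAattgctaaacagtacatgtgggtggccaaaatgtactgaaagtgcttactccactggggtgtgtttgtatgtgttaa
The same TTCTTAGAA starts 172 bases before the RefSeq start of Chil3 and 200 bases before that of Chil4, and the spaced TTCACAAGAA starts 145 bases before that of Retnla. In the 250 bases before the RefSeq starts of Chil1 and Chia1 neither motif was found. For Chia1, 153 of these bases lie inside the gene as GENCODE places it. Only 97 lay before both annotated starts, too few to compare on their own. Among 32817 RefSeq mouse promoters of 250 bases, 7.01% held TTCNNNGAA and 5.85% held TTCNNNNGAA, and a match describes letters only.

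Although they are near copies, Chil3 and Chil4 UMIs hardly mixed within cells. The 97 Control cells with at least 10 Chil3 UMIs held 5982 of Chil3 and 0 of Chil4, and the 48 such NAPH cells held 3065 and 1. The 7 NAPH cells with at least 10 Chil4 UMIs held 394 of Chil4 and 2 of Chil3. How the authors' counting treated reads that fit both genes is not stated in the labels. Cells rich in one gene thus carried almost none of the other, in both libraries.

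**Figure D1:**
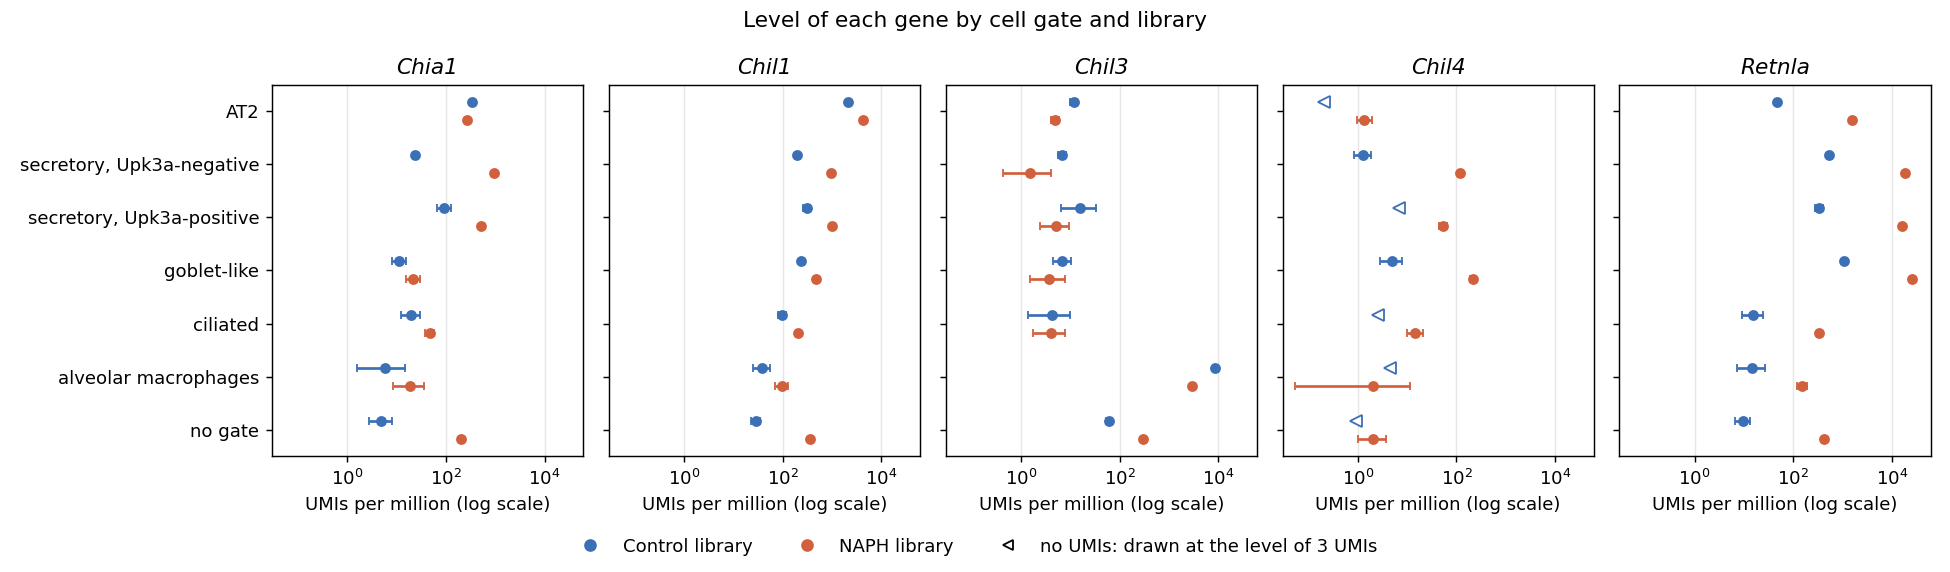
Level of each of the 5 genes in each cell class, as CPM on a log axis, with 1 point per library (Control blue, NAPH orange) and exact 95% Poisson bars; open triangles stand at the level of 3 UMIs where none was counted. Chil1 was highest in AT2 cells, Chil3 in the macrophage class and Retnla in goblet-like cells in both libraries, while Chia1 was highest in AT2 cells in Control (332) and in Upk3a-negative secretory cells in NAPH (961).

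The plot of levels by class shows in which class of the sorted Control cells each member was highest. Chia1 and Chil1 were both highest in AT2 cells, Chil4 and Retnla both in goblet-like cells, and Chil3 in the macrophage class. Chia1, the chitinase, was an AT2 gene in Control: AT2 cells held 89.6% of that library's Chia1 UMIs. In the NAPH library the AT2 share of Chia1 UMIs was 59.6%, and Upk3a-negative and Upk3a-positive secretory cells, which made up 3.44% and 2.07% of the cells, held 21.9% and 8.74%. Chil1 lay in AT2 cells in both libraries, with 87.6% and 94.6% of its UMIs in AT2 cells. In Upk3a-negative secretory cells 4 of the 5 members were at least 2 times higher in NAPH and 1, Chil3, was lower. Over all 11776 genes tested in that class, 7.24% were as much higher and 6.66% as much lower.

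Chia1 was low in Control secretory cells. Its level in the Upk3a-negative class was 23.7 CPM (21.6 to 25.9) in Control, from 483 UMIs, and 961 CPM (923 to 1000) in NAPH, from 2470 UMIs. The ratio was 27.3 (24.7 to 30.1), or 40.6 as a plain ratio. A UMI of Chia1 was found in 22.5% of Control and 65% of NAPH cells, and with every cell thinned to 3500 UMIs in 6.21% and 43.1%. The NAPH cells were uneven: the median was 1 UMI, the upper quartile 10.5 and the highest cell 327, and the 13 richest of the 123 cells held 72.8% of the UMIs. The ratio was 41.6 over cells in exactly 1 class. AT2 markers were higher in this class too: the summed level of 6, all detected, was 7087 CPM in Control and 17932 in NAPH, and Sftpc took 0.279% and 1.14% of the UMIs. Their part in the Chia1 difference was not tested; per 1000 UMIs of Sftpc, Chia1 was 8.48 and 84 in this class and 1.39 and 1.31 in AT2 cells.

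In Upk3a-positive secretory cells Chia1 stood at 92.7 CPM (66.5 to 126) in Control, from 41 UMIs in 4 of 16 cells, and at 512 CPM (481 to 545) in NAPH. The ratio was 3.62 (2.65 to 5.07), and it was 8.35 with gate thresholds halved, 5.77 with cells thinned, 5.47 over cells in exactly 1 class and 5.53 as a plain ratio. The AT2 markers summed to 7564 CPM in Control and 15918 in NAPH in this class. In it 4 of 5 members were at least 2 times higher and 1 lower, against 10.8% and 8.63% of 8103 genes. Of the 4, Chil1 fell to 1.63 with gate thresholds doubled.

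AT2 cells did not share the higher Chia1. Their level was 332 CPM (323 to 342) in Control and 269 CPM (262 to 275) in NAPH, a ratio of 0.759 (0.731 to 0.788). The share of AT2 cells with a UMI was 63.6% and 59.6%, and the median was 1 UMI in both. The AT2 ratio was thus below 1 and those of the secretory classes above it, but the AT2 value stayed within 2 times. Of the 13162 genes tested in AT2 cells, 15.9% had a lower ratio. With 1 library per group the difference between classes could not be tested.

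The NAPH secretory cells with the most Chia1 were those outside the goblet gate. Chia1 stood at 1573 CPM (1511 to 1636) in the 82 Upk3a-negative cells outside it and at 27.5 CPM (18.3 to 39.8) in the 41 inside it. Among Upk3a-positive cells the values were 801 CPM (751 to 853) in 48 cells outside and 14.2 CPM (6.80 to 26.1) in 26 inside. Of 197 NAPH secretory cells, 47 had at least 10 Chia1 UMIs, and 0 of these were among the 67 in the goblet gate. The median depth in NAPH was 24756 UMIs in goblet-like, 19473 in Upk3a-negative and 26900.5 in Upk3a-positive cells. In Control 9 of 757 secretory cells had at least 10 Chia1 UMIs, too few to compare with the 139 in the goblet gate. By level, Control Upk3a-negative cells had 26.3 CPM (23.9 to 28.9) outside that gate, from 444 UMIs. Inside it they had 11.1 CPM (7.91 to 15.2), from 39 UMIs.

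In ciliated cells Chia1 was 19.5 CPM (12.4 to 29.2) in Control and 47.6 (38.4 to 58.2) in NAPH, and in the macrophage class 5.92 (1.61 to 15.2) and 18.6 (8.51 to 35.3), from 4 and 9 UMIs. A UMI was seen in 8.81% and 29.4% of ciliated cells and in 3.13% and 12.5% of the macrophage class. Per 1000 UMIs of Sftpc, Chia1 stood in NAPH at 4.24 in ciliated cells and 3.64 in the macrophage class, against 1.31 in AT2 cells, 84 in Upk3a-negative and 67.9 in Upk3a-positive secretory cells. The part of free RNA, which enters all droplets, was not tested, and no expression in ciliated cells or macrophages is read from these levels. In Control the order was AT2, Upk3a-positive, Upk3a-negative, ciliated, goblet-like, macrophage and unclassed cells, and from Upk3a-negative cells downward the intervals of neighbours overlapped. In NAPH it was Upk3a-negative, Upk3a-positive, AT2, unclassed, ciliated, goblet-like and macrophage cells, where only the last pair overlapped.

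**Figure D2:**
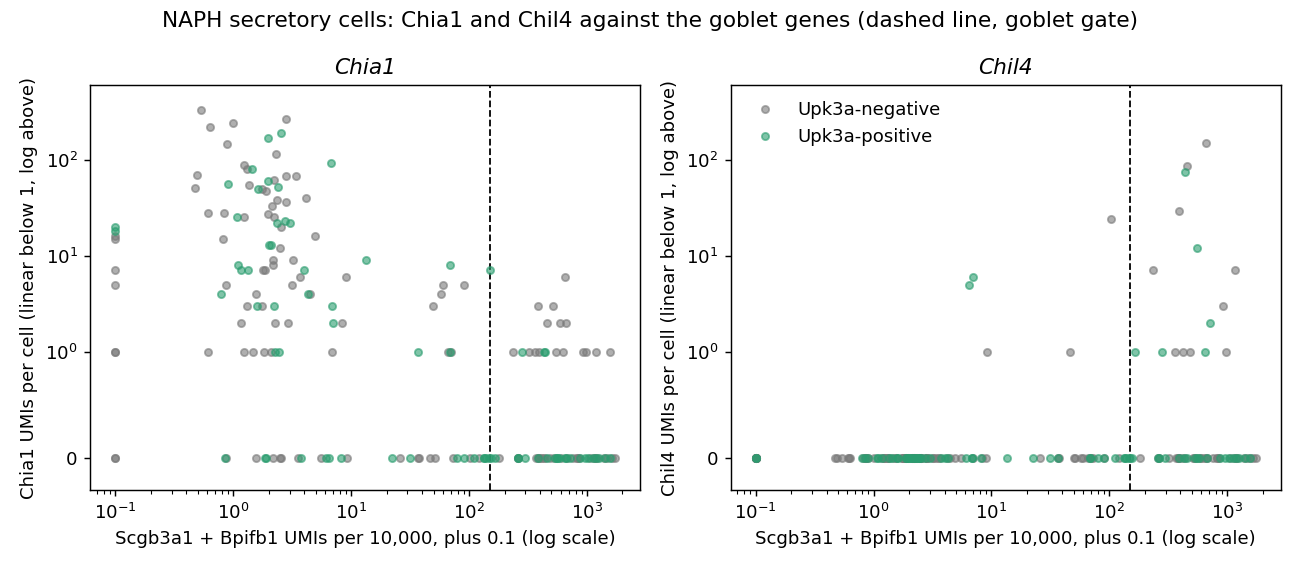
UMIs per cell of Chia1 (left) and Chil4 (right) in the 197 NAPH secretory cells against the goblet genes Scgb3a1 plus Bpifb1 per 10,000 UMIs (log axis, 0.1 added; vertical axis linear below 1 and log above), with Upk3a-negative cells grey and Upk3a-positive cells green and the goblet gate as a dashed line. The 47 cells with at least 10 Chia1 UMIs all lie left of the line, and 8 of the 11 cells with at least 3 Chil4 UMIs lie right of it.

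Chil1, which epithelial cells and macrophages can secrete, was an AT2 gene here. It stood at 2102 CPM (2078 to 2126) in Control, with a median of 15 UMIs per cell, and at 4234 CPM (4208 to 4260) in NAPH, with a median of 34. The ratio was 1.89 (1.87 to 1.91) and the plain ratio 2.01, so that which side of 2 the gene falls on depends on the scaling. Nearly every AT2 cell carried it, 99.1% in Control and 99.9% in NAPH. The whole distribution lay higher in NAPH, from the lower quartile (10 and 20 UMIs) to the highest cell (90 and 307). In AT2 cells 2 of 5 members, Retnla and Chil4, were at least 2 times higher and 1, Chil3, lower, against 5.11% and 3.76% of 13162 genes. The calls of Chil4 and Chil3 rest on few cells, which pass other gates. Over AT2 cells in no other class Chil4 had 5 UMIs in NAPH, too few to compare, and the Chil3 ratio was 1.21. Of the 122 NAPH UMIs of Chil3 behind that ratio, 53 were in 1 cell.

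Secretory cells also held Chil1, at lower levels. The Upk3a-negative class had 198 CPM (192 to 204) in Control and 936 CPM (899 to 975) in NAPH, a ratio of 3.18 (3.02 to 3.35). The Upk3a-positive class had 308 CPM (258 to 364) and 1015 CPM (970 to 1061), a ratio of 2.16 (1.81 to 2.59). Goblet-like cells had 231 CPM (216 to 248) and 468 CPM (438 to 500), with a ratio of 1.52 (1.38 to 1.68). The NAPH secretory cells with at least 10 Chia1 UMIs had a median of 16 Chil1 UMIs, against 6 in the others, and 31 of the 47 also had at least 10 of Chil1. The counts were not adjusted for the depth of the cells, whose part was not tested.

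Since most Chil1 lay in AT2 cells, it was also set against Sftpc. In ciliated cells Chil1 stood at 8.55 UMIs per 1000 of Sftpc in Control and 18.5 in NAPH, near the 8.82 and 20.7 of AT2 cells themselves. The macrophage class had 5.80 and 18.6. The levels of Chil1 in ciliated cells (96.6 and 207 CPM) and in the macrophage class (38.5 and 95.1 CPM) thus stood to Sftpc about as in AT2 cells or lower; the part of free AT2 RNA in them was not tested. Upk3a-negative secretory cells had 70.9 and 81.9 Chil1 UMIs per 1000 of Sftpc, and Upk3a-positive cells 140 and 134, above the AT2 value. The AT2 markers that were higher in NAPH secretory cells, given above for Chia1, moved with Chil1 too, and their part was not tested. In order of level, AT2 cells were followed in Control by Upk3a-positive, goblet-like, Upk3a-negative, ciliated, macrophage and unclassed cells, and the intervals of the last pair overlapped. In NAPH the order was AT2, Upk3a-positive, Upk3a-negative, goblet-like, unclassed, ciliated and macrophage cells, with overlap between both Upk3a classes.

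**Figure D3:**
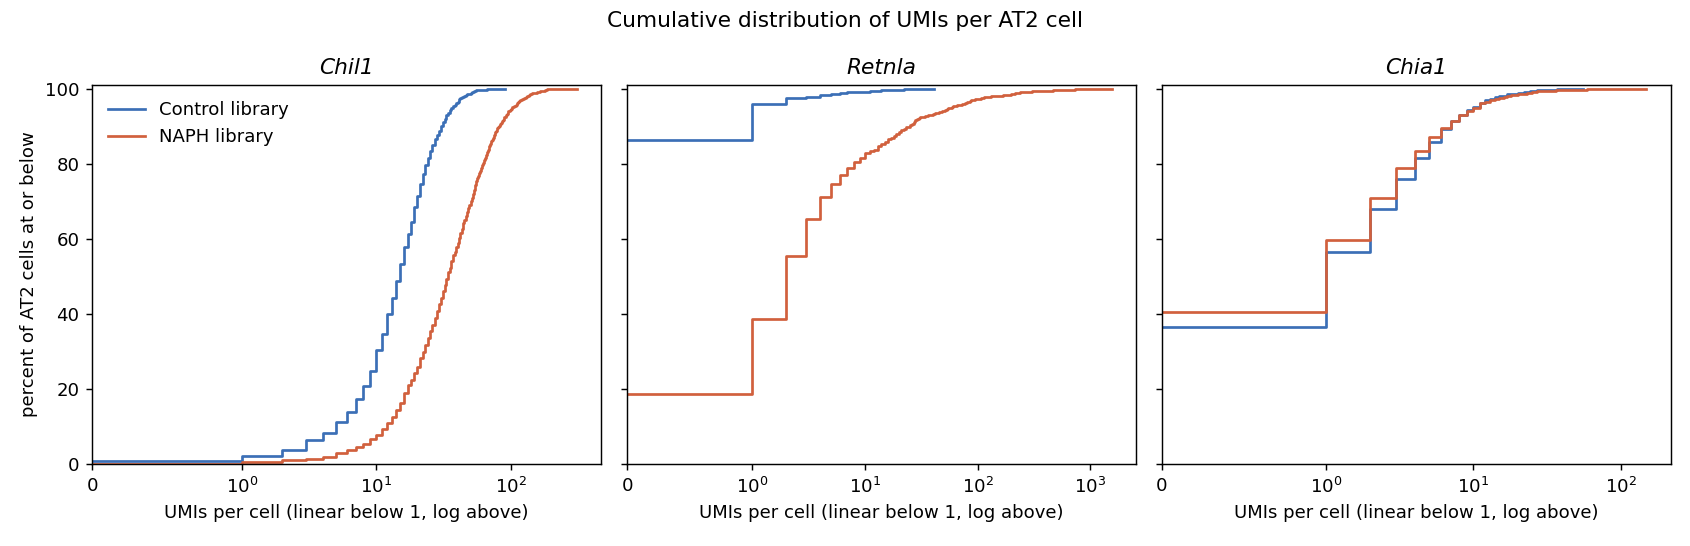
Percent of AT2 cells at or below each number of UMIs per cell (horizontal axis linear below 1, log above) for Chil1, Retnla and Chia1, with 1800 Control cells in blue and 2516 NAPH cells in orange. The Chil1 curve lies to the right in NAPH over its whole length, Retnla has a long upper tail there, and the Chia1 curves nearly coincide.

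Chil3 was a macrophage gene in both libraries. In the macrophage class it stood at 8587 CPM (8368 to 8811) in Control, with a UMI in 92 of 96 cells and a median of 52, and at 2971 CPM (2819 to 3129) in NAPH, with a UMI in 26 of 64 cells and a median of 0. The ratio over the class was 0.396 (0.374 to 0.420). This class changed in makeup between the libraries, however, as its markers show. The summed level of the 8 alveolar macrophage markers, all detected, was 4557 CPM in Control and 1491 in NAPH, and that of 6 dendritic cell markers was 5712 and 30019, with Ccr7 at 0 in Control.

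The 40 NAPH cells of the class with fewer than 3 alveolar macrophage markers held 2 Chil3 UMIs in all. Of these cells 37 had Cd209a, 37 had Mgl2 and 27 had Ccr2, genes of monocyte-derived dendritic cells and macrophages, and the 4 such cells in Control had Cd209a and Mgl2 and 0 Chil3 UMIs. Among cells of the class with at least 3 markers, chosen after the data were seen, Chil3 was 9014 CPM (8784 to 9249) in 92 Control cells and 8933 CPM (8477 to 9408) in 24 NAPH cells, a ratio of 0.990 (0.933 to 1.05). Taking instead every cell with at least 4 of the 8 markers gave 8916 CPM in 97 and 9765 CPM in 45 cells, a ratio of 1.08 (1.04 to 1.13). In all of these cells Chil3 was present, with at least 10 UMIs in Control and 23 in NAPH. Chil3 per marker-positive macrophage was thus of like size in both libraries, and the lower class value went with the share of cells without the markers.

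**Figure D4:**
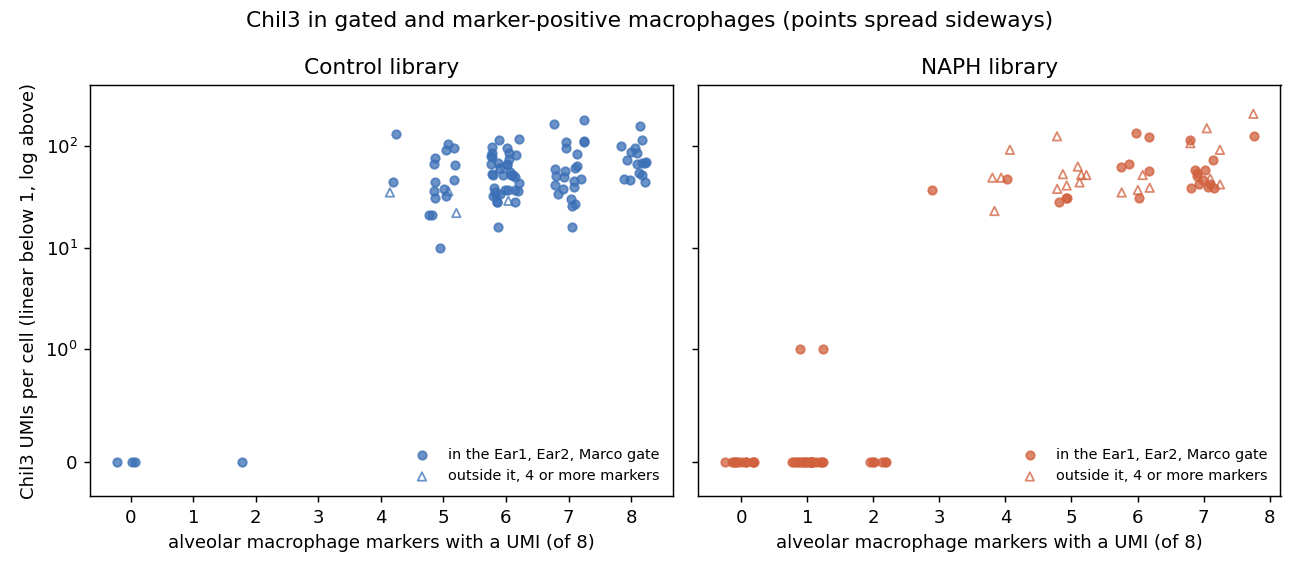
Chil3 UMIs per cell (linear below 1, log above) against the number of 8 alveolar macrophage markers with a UMI, in the Control library (left) and the NAPH library (right); filled circles are cells of the Ear1, Ear2 and Marco gate and open triangles are cells outside it with at least 4 markers. Cells with 3 or more markers have 10 or more Chil3 UMIs in both libraries, and 40 gated NAPH cells with fewer markers have 0 or 1.

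Of the macrophage class, 3 of the 4 members with at least 10 UMIs were at least 2 times higher and 1 lower, against 11.2% and 11.3% of 7751 genes. The 3 were Chia1, Chil1 and Retnla, from 9, 46 and 72 NAPH UMIs, and single settings ended each call: the ratio was 1.73 for Chia1 with cells thinned, and 1.54 for Chil1 and 0.984 for Retnla with doublets kept. The epithelial classes held Chil3 at low levels. In Upk3a-negative secretory cells it was 6.82 CPM (5.73 to 8.05) in Control and 1.56 (0.424 to 3.98) in NAPH, from 139 and 4 UMIs, a ratio of 0.154 (0.0413 to 0.402). In ciliated cells it was 4.24 and 4.05 CPM. The AT2 values of 11.6 and 4.97 CPM were 3.83 (2.88 to 5) and 4.95 (4.11 to 5.92) CPM over AT2 cells in no other class. In NAPH 53 of the 122 Chil3 UMIs of these cells were in 1 cell. The whole libraries held 6194 Chil3 UMIs in Control and 3197 in NAPH, and the part of free macrophage RNA in the epithelial values was not tested. After the macrophage class, unclassed cells were second in both libraries, at 60.7 and 303 CPM.

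Chil4, the near copy of Chil3, was hardly found in the macrophage class. The macrophage class held 0 Chil4 UMIs in Control, which allows up to 4.44 CPM, and 1 in NAPH. Its place was the airway: all 26 Control UMIs lay in 6 Upk3a-negative secretory cells, and the NAPH library held 480 UMIs in 42 cells. Upk3a-negative secretory cells had 1.28 CPM (0.833 to 1.87) in Control and 120 CPM (107 to 134) in NAPH, a ratio of 63.4 (42.5 to 98.6). Upk3a-positive cells had 0 UMIs in Control, in 16 cells, and 53.1 CPM (43.3 to 64.4) in NAPH, at least 5.12-fold higher against 3 counts in the class.

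Chil4 was highest in goblet-like cells in both libraries. They had 4.85 CPM (2.83 to 7.77) in Control and 211 CPM (191 to 233) in NAPH, a ratio of 32.7 (20.2 to 56.7). Of the 17 Control UMIs in goblet-like cells, 13 were in 1 cell. Upk3a-negative Control cells outside the goblet gate had 9, of which 8 were in 1 cell. The Control rank and the ratio thus rest on few cells. A UMI was found in 2.88% (0.790 to 7.20) of Control and 26.7% (17.1 to 38.1) of NAPH goblet-like cells. Within Upk3a-negative secretory cells of NAPH, Chil4 was 278 CPM (247 to 312) inside the goblet gate and 16.8 CPM (10.9 to 24.5) outside it, the reverse of Chia1. In goblet-like cells Chil4 and Retnla were the 2 of 5 members at least 2 times higher and Chil3 the 1 lower, against 7.10% and 7.66% of 9793 genes.

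Few cells made most of the Chil4. The 7 NAPH cells with at least 10 UMIs had 148, 85, 74, 29, 24, 22 and 12, and 5 of them passed the goblet gate. The first alone gave 148 of the 309 UMIs of the Upk3a-negative class. All but 1 of these cells were rich in Retnla, with between 653 and 4049 Retnla UMIs, and the ciliated cell with 22 Chil4 UMIs had 57. Over all 11 NAPH secretory cells with at least 3 Chil4 UMIs the median Retnla was 971, against 89.5 in the others, and 0 of the 11 had 10 or more Chia1 UMIs. Of the 11, 8 were in the goblet gate, where Retnla was higher and 0 of 67 cells had 10 or more Chia1 UMIs. The 0 was thus already fixed for those 8. Neither depth per cell nor the goblet gate was adjusted for in these counts. The ratio in the Upk3a-negative class was 22 over cells in exactly 1 class, 33 with cells thinned to equal depth and 40.5 with cells weighted equally. AT2 cells held 34 Chil4 UMIs in NAPH and 0 in Control, at least 6.07-fold, and 29 of the 34 were in 1 cell that also passed the secretory and goblet gates. In NAPH the order was goblet-like, Upk3a-negative, Upk3a-positive and ciliated cells (14.7 CPM), none overlapping, and then unclassed, macrophage and AT2 cells, which overlapped. The first 2 classes share the cells with 148, 85 and 29 UMIs, and 22 of the 29 ciliated UMIs were in 1 cell. The intervals, which cover counting error only, therefore do not settle this order.

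Retnla, the resistin-like member, was higher in NAPH in every class, although in the macrophage class the ratio was 0.984 with doublets kept. Upk3a-negative secretory cells had 520 CPM (510 to 530) in Control, with a median of 2 UMIs per cell, and 18457 CPM (18291 to 18624) in NAPH, with a median of 88. The ratio was 23.9 (23.4 to 24.4). Upk3a-positive cells had 332 CPM (281 to 391) and 15819 CPM (15641 to 15998), with medians of 4 and 181.5 UMIs and a ratio of 31.1 (26.5 to 36.9). In both classes the median NAPH cell held more Retnla than most Control cells, as the upper quartile of Control was 9 and 11.5 UMIs.

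Goblet-like cells were the highest in both libraries, at 1060 CPM (1026 to 1095) in Control and 24835 CPM (24611 to 25062) in NAPH, a ratio of 17.6 (17 to 18.2). Their median was 4 and 421 UMIs per cell. Among NAPH Upk3a-negative cells Retnla was 27138 CPM inside the goblet gate and 12767 CPM outside it, and among Upk3a-positive cells 24366 and 10872 CPM. Retnla and Chia1 thus leaned to different sides of the goblet gate. NAPH secretory cells with at least 10 Chia1 UMIs, all outside that gate, had a median of 44 Retnla UMIs. The median was 133.5 in the others, which include the 67 cells inside it. All NAPH cells outside the gate had Retnla medians of 45.5 (Upk3a-negative) and 51.5 (Upk3a-positive), close to that 44. The contrast thus restates the gate and shows no lean between the 2 genes among cells outside it. Nor were the 2 genes exclusive, since 35 of the 47 cells with at least 10 Chia1 UMIs had at least 10 Retnla UMIs.

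**Figure D5:**
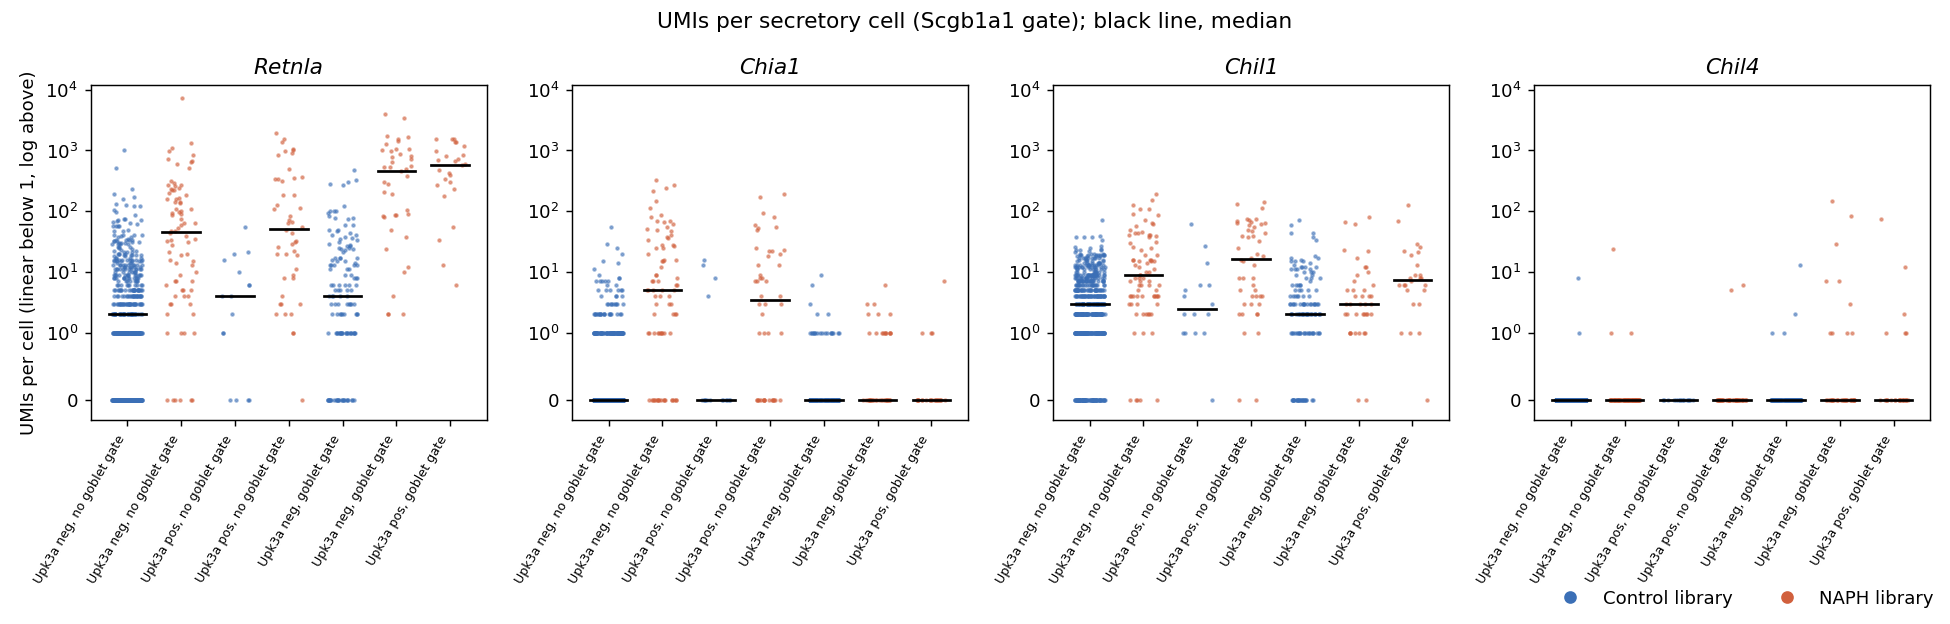
UMIs per secretory cell of Retnla, Chia1, Chil1 and Chil4 (vertical axis linear below 1, log above), split by Upk3a and by the goblet gate, with 1 point per cell, Control in blue and NAPH in orange, and the median as a black line. Retnla medians are highest in NAPH cells of the goblet gate, whereas Chia1 has its high cells outside that gate.

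AT2 cells had 46.7 CPM (43.2 to 50.4) of Retnla in Control and 1507 CPM (1492 to 1523) in NAPH, a ratio of 30.3 (28 to 32.7). A UMI was found in 13.7% of Control and 81.4% of NAPH AT2 cells. These shares are close to those of ciliated cells (8.81% and 80.9%, at medians of 5339 and 8068 UMIs per cell against 7679 and 9547) and not far above those of the macrophage class (10.4% and 67.2%), so no expression is read from the share alone. Cells with more UMIs were set apart by count: 465 of 2516 NAPH AT2 cells had at least 10 Retnla UMIs, against 16 of 1800 in Control, 5 of 204 NAPH ciliated cells and 0 of 64 in the macrophage class. Retnla stood at 322 UMIs per 1000 of Scgb1a1 in NAPH AT2 cells, against 50.5 and 47.9 in the secretory classes, 37.2 in ciliated cells and 47.9 in the macrophage class. The part of free RNA was not tested.

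The 252 richest of the 2516 NAPH AT2 cells held 79.5% of their Retnla, and the highest cell had 1540 UMIs. The highest cell among AT2 cells of no other class had 1103. The 465 AT2 cells with at least 10 Retnla UMIs had a median of 55 Chil1 UMIs, against 30 in the others, and 57 of them had at least 10 Chia1 UMIs. These are UMIs per cell without adjustment for depth, whose part was not tested. Levels elsewhere were 15.3 and 337 CPM in ciliated cells and 14.8 and 149 CPM in the macrophage class. In Control the levels fell from goblet-like through Upk3a-negative, Upk3a-positive and AT2 cells to ciliated, macrophage and unclassed cells, whose intervals overlapped. The NAPH order was the same for the first 4, followed by unclassed, ciliated and macrophage cells with no overlap. In ciliated cells 3 of 5 members, Chia1, Chil4 and Retnla, were at least 2 times higher and 0 lower, against 8.92% and 3.63% of 11268 genes. Of the 29 Chil4 UMIs in NAPH ciliated cells 22 were in 1 cell, and the Chia1 ratio was 1.59 with doublets kept, 1.74 with gate thresholds doubled and 1.97 with cells thinned, under the 2 times of a call.

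In cells of no class 4 of 5 members were at least 2 times higher in NAPH and 0 lower, against 17.3% and 4.74% of 12520 genes, so a larger share of all genes was higher there than in any class. Chia1 stood at 4.88 CPM in Control and 200.1 in NAPH, and 19 of the 602 NAPH cells had at least 10 UMIs of it, against 0 of 379. Chil1 was 28.4 and 353 CPM and Retnla 9.46 and 417 CPM. These cells are mixed: 83.6% of them in Control and 58.8% in NAPH had at least 3 of 6 dendritic markers, and the summed level of 6 club cell markers was 687 and 7673 CPM.

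Other genes of these families were few. Of the 6 other chitinase-family genes, 2 could be compared in Upk3a-negative secretory cells and both fell within 2 times: Chid1, a chitinase-domain protein, at 0.791 and Ctbs, a lysosomal chitobiase, at 0.651. Most genes did so, since only 7.24% of all genes there were higher and 6.66% lower. In Upk3a-positive cells only Chid1 could be compared. It was called higher, at 2.63 (0.677 to 22.6) from 2 and 35 UMIs, against 10.8% and 8.63% of all genes. In AT2 cells all 3 that could be compared fell within 2 times, Chid1 at 1.06, Ctbs at 1.17 and Ovgp1, an oviduct glycoprotein of the chitinase fold, at 1.76. There 5.11% of all genes were higher and 3.76% lower. Of the 3 other resistin-family genes, 2 could be compared in Upk3a-negative secretory cells. Both were higher, Retnlg and a gene with 3 Control and 10 NAPH UMIs, against 7.24% of all genes. Retnlg, a resistin-family gene next to Retnla that shares 84.5% of its transcript bases with it, was 8.93 and 45.1 CPM in Upk3a-negative secretory cells, a ratio of 3.40, and 1.19 and 4.89 CPM in AT2 cells, a ratio of 3.84. Whether its UMIs come in part from Retnla reads was not tested.

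The receptors and sensors proposed for these proteins stayed mostly within 2 times. In Upk3a-negative secretory cells 1 of 5 was higher and 0 lower, against 7.24% and 6.66% of all genes. It was Tlr2, an innate receptor, at 2.02 (0.912 to 4.17) from 29 and 11 UMIs, and Cd44, a hyaluronan receptor, was at 1.62. Tmem219, a co-receptor for Chil1, was at 0.948. In AT2 cells 0 of 5 were higher and 1 was lower, again Tlr2, at 0.421 (0.173 to 0.998) from 14 and 11 UMIs, against 5.11% and 3.76% of all genes, with Tmem219 at 1.11 and Cd44 at 1.24.

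More of the type 2 genes differed. In Upk3a-negative secretory cells 5 of 8 type 2 signalling genes were at least 2 times higher and 0 lower, against 7.24% and 6.66% of all genes, with a median log2 ratio of 1.59 against 0.00 for all genes. Il33, the alarmin that starts type 2 responses, was 2.45 CPM in Control and 38.5 in NAPH, a ratio of 10.6. Its UMIs numbered 50 in Control and 99 in NAPH, beside 56945 and 29398 of Sftpc in this class. AT2 cells held 2486 and 18707 Il33 UMIs beside 3399989 and 5114615 of Sftpc. The part of AT2 RNA in the secretory Il33 value was not tested. Socs1, a feedback inhibitor of cytokine signalling, had a ratio of 8.89. Stat6 itself stood at 0.873 and the receptor chain Il13ra1 at 0.584. Of the type 2 response genes 10 of 13 were higher and 1 lower, with a median of 2.06. Muc5ac, an airway mucin, was 3.29 and 110 CPM, a ratio of 22.5, and Agr2, needed for mucin folding, was 17.7 and 350 CPM, a ratio of 13.3, while Tff2, a trefoil peptide, stood at 1.39. Several of these genes are also goblet cell markers, and 33.3% of this class in NAPH against 18.8% in Control passed the goblet gate, whose part in the list's values was not tested.

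In Upk3a-positive cells 3 of 5 signalling genes and 3 of 8 response genes were higher and 0 and 1 lower, against 10.8% and 8.63% of all genes, with medians of 1.08 and -0.27 against -0.03 for all genes. Several of these calls rest on 0 to 2 Control UMIs, such as Il33 (0), Il4ra and Areg (1 each) and Ptgs1 (2). In that class Muc5b, a mucin, stood at 5.57 and Tff2 at 0.491. In AT2 cells 3 of 7 signalling and 5 of 14 response genes were higher and 0 lower, against 5.11% and 3.76% of all genes, with medians of 0.91 and 0.95. Il33 was 174 and 749 CPM in AT2 cells, a ratio of 4.03, Areg, an EGF receptor ligand, had 3.13, and the anion exchanger Slc26a4 had 8.12, whereas Stat6 was at 0.831. In the macrophage class, with the makeup given above, 2 of 7 signalling and 2 of 3 response genes were at least 2 times higher and 0 lower, against 11.2% and 11.3% of all genes. Ccl17, a chemokine of dendritic cells and macrophages, was 102 and 3531 CPM there, and Mrc1, the mannose receptor, stood at 0.708.

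The genes whose levels ran most like each member are given over the 14 points that the 7 groups of cells and both libraries make, as Pearson's r of log2(CPM + 1) among 13056 genes. The points share libraries, and some share cells. Chil1 ran with AT2 genes: the surfactant protein Sftpd and Socs2 and Cxcl15 (r = 0.97 each), then Sfta2 and Tle6 (0.96). Chil3 ran with Mrc1 (0.99) and with Adgre1, Clec4a3, Prune2 and Pilra (0.98 each). For Chil4 they were Dmbt1 (0.90), Sprr2a3 (0.89) and Msln and Muc5ac (0.88 each). Retnla ran with Fetub (0.96), Synpo and Retnlg (0.92), Steap4 (0.91) and Slc25a35 (0.90). The closest to Chia1 were Cd79b and Ager (0.89), Slc30a2 (0.88), Bmp4 and Arxes2 (0.86). By rank (Spearman's rho) the Chil3 genes stood lower, at 0.72 to 0.82, and the Chil4 genes at 0.67 to 0.83. The genes of the other members had a rho of 0.81 or more.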

How the data were processed

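The deposited matrices hold unnormalized UMI counts, 1 per gene and barcode, made with Cell Ranger against mm10 per the submitters' processing notes; version and settings: not given in the sources used here. Kept barcodes had at least 500 genes, at least 1000 UMIs and at most 20% mitochondrial UMIs, which removed 0 in Control and 4 in NAPH. Scrublet (scanpy 1.11.5, Python 3.11.15) was run per library. Its automatic threshold called 0.243% and 0.0815% of barcodes, so the highest scores were removed at 0.8% per 1000 barcodes, 87 and 108 cells. Counts were summed per class and library. Ratios were divided by that of the median gene with at least 10 UMIs in the class and UMIs in both libraries, and a gene was called at 2 times. Genes with no UMIs in a library were set at 3 counts over the class. The ratio step was tested on simulated counts. Scaling factors of edgeR 4.0.16 (TMM) and DESeq2 1.42.0 in R 4.3.3 were used as alternatives only. Positions came from GENCODE vM21 and upstream sequences from RefSeq (GRCm38.p6), where all 5 members matched. The depth per class sets the intervals, which cover counting error only.

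The members, classes and lists were chosen with earlier results of these data known. Named genes were the 5 members in every class, up to 2 highest and 2 lowest of each related list in a class among genes with at least 30 UMIs, of which some are given, and the 5 genes most like each member with at least 50 UMIs. 1 gene that this rule names is not reported here.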

Additional observations from a re-analysis of the deposited data

Results flagged for a closer look

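Chia1 was higher in NAPH in both secretory classes but not in AT2 cells. The ratio was 27.29 in Upk3a-negative and 3.615 in Upk3a-positive secretory cells, against 0.759 in AT2 cells, within the 2 times of a call. In goblet-like cells it was 1.472 (0.926 to 2.343). No expression is read from the values of 2.264 in ciliated cells and 3.6 in the macrophage class, the latter from 4 and 9 UMIs. The difference between classes was not tested, since there is 1 library per group.

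Cells in none of the classes held members in NAPH above their Control levels. Chia1 stood at 4.881 CPM in 379 Control cells and 200.1 CPM in 602 NAPH cells, and 97.6% of its NAPH UMIs were in the 61 richest cells. Chil1 was 28.37 and 353.2 CPM, Retnla was 9.456 and 417.4 CPM, and Chil3 was 60.7 and 303.4 CPM. In these cells 4 of 5 members were at least 2 times higher and 0 lower, against 17.3% and 4.74% of 12520 genes. For Chil3, the 22 NAPH cells outside the macrophage gate with at least 4 alveolar macrophage markers held 1491 UMIs, and all unclassed NAPH cells together held 1615. These 22 cells were not limited to unclassed cells, so the 1491 need not lie wholly within the 1615.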

How the results depend on the processing

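Over 5 main ratios and 57 alternative settings, 29 values stayed within the counting interval, 27 moved beyond it and 1 turned direction; over 25 other ratios and 268 settings, 221 stayed, 45 moved and 2 turned. Without centring the ratio was 40.6 for Chia1 and 35.5 for Retnla in Upk3a-negative secretory cells, 2.01 for Chil1 in AT2 cells and 0.346 for Chil3 in the macrophage class. Over cells in exactly 1 class Chia1 was 41.6, Chil4 22 and Retnla 21.9. Chil3 in AT2 cells turned there to 1.21, with 53 of its 122 NAPH UMIs in 1 cell. With doublets kept Chia1 was 21.2, Chil1 1.92 and Retnla 24.8, and Retnla in the macrophage class turned to 0.984. Thinned to 3500 UMIs per cell, Chia1 was 22.2, Chil4 33, Retnla 17.5, Chil1 1.83 and Chil3 0.436; with cells weighted equally these were 23.1, 40.5, 17.4, 1.82 and 0.441. With gate thresholds halved or doubled Retnla was 17.2 or 26.9 and Chil3 0.446 or 0.695. Chil3 was 0.338 with the gate's genes left out of the denominator, and Retnla was 23.2 with no filter on low counts in the centring. In alternatives added after seeing the data, Chil3 was 0.99 in gated cells with at least 3 macrophage markers and 1.08 in all cells with at least 4. The cause of these shifts was not tested. No paired analysis was possible because each group has 1 library, and for the same reason none could be left out. Depth limits Chil4 most, with 26 UMIs in Control.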
